A study of Rattus norvegicus with 12 samples.

Results

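The genes described here encode the vacuolar proton pump, the cathepsins and the lysosome-associated membrane proteins. They were taken from the deposited array table by symbol: every gene starting with Atp6v, Atp6ap or Lamp and a digit, every cathepsin (Cts and a letter), and Tcirg1. This gave 38 of the 21684 genes in the table, measured by 41 of its 22523 probes, and a gene with several probes was read from its brightest. Of the 38 genes, 8 encode subunits of the membrane sector of the pump (V0), 13 encode subunits of its cytosolic sector (V1), 2 encode accessory subunits, 12 encode cathepsins and 3 encode LAMP proteins. The file's Atp6v1a1 and Ctsl1 are now named Atp6v1a and Ctsl.

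The samples were marrow cultures of male Wistar-Hannover rats, grown to osteoblasts or to osteoclasts, from animals with sham surgery, with spinal cord transection (SCI), or with SCI and functional electrical stimulation (SCI+FES). The SCI animals, taken to be those that the design text calls sham FES, had implant surgery and ablation of the gastrocnemius in week 14 but no stimulator, and were collected at week 17. SCI+FES animals had a stimulator implanted in week 14 and were stimulated from week 16 for 60 minutes a day on 7 days, at 40 Hz and 1.5 V, with 2 s of contraction and 18 s of rest. Sham animals kept an intact cord, had no implant surgery named in the labels, and were collected 12 to 14 weeks after surgery, so surgery, week of collection and SCI cannot be told apart. Each group's RNA is a pool from 3 to 4 animals, and each of the 6 pools was run on 2 arrays, so that every treatment in a culture type rests on n = 1 pool. Osteoblast RNA carries the label day 10 and osteoclast RNA day 3, except that the SCI osteoclast pool has no day. In the submitters' sample IDs, 3 pools carry the same number: SCI+FES osteoblast, and SCI and SCI+FES osteoclast, the last 2 each with a different letter. Both sham pools share another number. The labels do not say what these numbers stand for, so it is not known whether pools share animals. The labels do not state the age of the animals.

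The pump acidifies lysosomes in every cell: V1 hydrolyses ATP in the cytosol and drives protons through V0 in the membrane. Osteoclasts also place the pump in the ruffled border facing bone, where acid dissolves the mineral, and release cathepsin K there to cut type I collagen. Tcirg1, the a3 subunit, and Atp6v0d2, the d2 subunit, are the forms of their positions best known from osteoclasts. The other cathepsins act mainly as proteases within lysosomes and endosomes, and LAMP1 and LAMP2 are heavily glycosylated proteins that line the lysosomal membrane.

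Each array detected 33.7% to 38.3% of the probes. Normalized values of duplicate arrays of a pool correlated at r of 0.996 to 0.997 across the 8913 genes detected in at least 1 pool. Values are log2 intensities after background correction and quantile normalization, and the pooled SD between duplicates was 0.10 for the genes described here. The culture labels were checked against marker lists. Of 9 osteoclast markers with a probe, 7 were at least 2-fold higher in osteoclast cultures at an adjusted p of at most 0.05 and all 9 were higher at that p at any size. Mmp9, a matrix protease, led them at 6.35 on the log2 scale. Of 10 osteoblast and stroma markers that were detected, 9 were lower, with a median of -5.77. Macrophage markers were present in both kinds of culture: all 13 with a probe were detected in each osteoblast pool, with a summed level of 87143 to 116700 on the linear scale, and 12 in each osteoclast pool, with 69767 to 73368. Erythroid markers were detected in no osteoblast pool, while 2 of 5 were detected in each osteoclast pool, with a summed level of 1605 to 4307.

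Of the 38 genes, 30 were detected well enough to be tested (a detection p no higher than 0.01 in both duplicates of some pool), and 27 were detected on all 12 arrays. The 8 others were Atp6v1b1, Atp6v1e2, Atp6v1g2, Atp6v1g3, Ctsg, Ctsq, Ctsr and Lamp3. Of these, 6 were detected on no array, while Atp6v1b1 and Ctsg were each detected on 1 array. Every subunit position of V1 nevertheless had a detected form. The B position was represented by Atp6v1b2, E by Atp6v1e1 and G by Atp6v1g1. Pool levels of the undetected partners stayed close together, at 6.64 to 6.84 for Atp6v1b1, 6.26 to 6.61 for Atp6v1e2, 6.27 to 6.54 for Atp6v1g2 and 6.45 to 6.73 for Atp6v1g3.

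To find which of these genes separate osteoclast from osteoblast cultures, limma was used to set the 3 osteoclast against the 3 osteoblast pools, with Benjamini-Hochberg adjustment over all 8913 genes tested. Of the 30 genes tested, 12 were higher in osteoclast cultures by at least 2-fold and 0 were lower. Among all genes tested, 4.91% were higher and 6.7% lower by this rule. The 12 were 11 genes of the pump and Ctsk. At an adjusted p of at most 0.05 and any size, 18 of the 30 were higher and 3 were lower, against 16.2% and 13.6% of all genes. All 3 pools of one culture lay above all 3 of the other for 19 genes that were higher and 4 that were lower, against 27.9% and 20.9% of all genes. The median difference of the 30 was 0.76 on the log2 scale, beside 0.07 for all genes tested. The passage of a gene through the detection filter may rest on the culture in which it was higher, which bears on these counts. In bulk RNA, fewer cells of a type and less RNA per cell cannot be told apart.

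**Figure D1:**
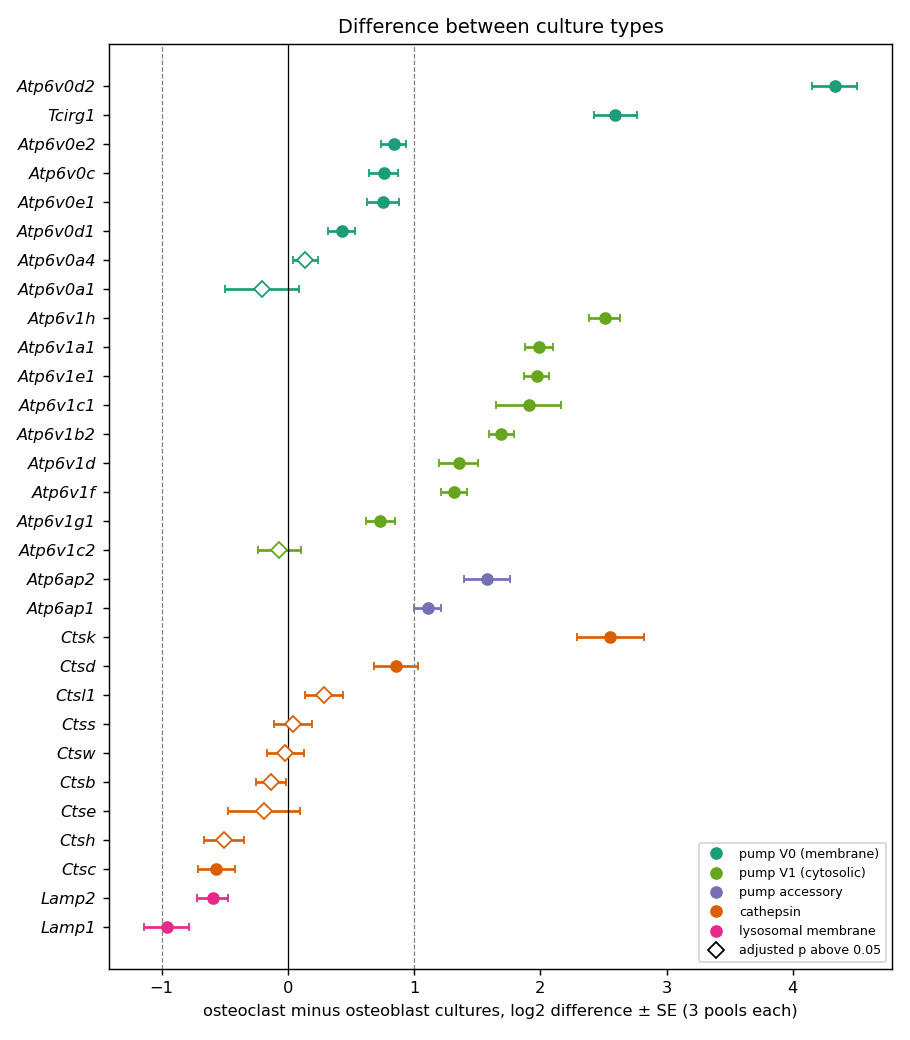
Difference between osteoclast and osteoblast cultures for the 30 genes tested, on the log2 scale with its SE (3 pools in each culture type). Filled circles have an adjusted p of at most 0.05 and open diamonds do not. The dashed lines mark 2-fold. Atp6v0d2 lies farthest to the right at 4.33, and Lamp1 farthest to the left at -0.96.

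In the V0 sector, 2 of 8 subunits rose at least 2-fold, Atp6v0d2 and Tcirg1, both of them the osteoclast forms. Another 3, Atp6v0c, Atp6v0e1 and Atp6v0e2, passed 2-fold under some settings. Atp6v0d2 stood at 13.12 in the sham, 13.11 in the SCI and 12.94 in the SCI+FES osteoclast pool, and at 9.11, 8.53 and 8.55 in the osteoblast pools. The groups lay far apart, and the difference was 4.33 ± 0.18 (SE, 3 pools in each), or 20.1-fold, with a limma adjusted p of 2.91e-05. Its partner Atp6v0d1, the form found in most tissues, stood at 10.94, 10.92 and 10.90 in osteoclast pools and 10.62, 10.50 and 10.36 in osteoblast pools. That difference was 0.43 ± 0.11 with an adjusted p of 0.0257, and the p rose to 0.294 when arrays were scaled to a common median. It also rose to between 0.0546 and 0.0911 when any 1 pool other than sham osteoblast was left out.

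Tcirg1, which is the subunit altered in a form of human osteopetrosis, stood at 13.83, 13.77 and 13.53 in the sham, SCI and SCI+FES osteoclast pools. In osteoblast pools it stood at 11.46, 10.95 and 10.95. Every osteoclast pool lay above every osteoblast pool, by 2.59 ± 0.17 on average (6.04-fold, limma adjusted p = 0.00013). Atp6v0a1, the form of the same position that is widely made, stood at 8.11, 8.78 and 8.96 in osteoclast and at 8.32, 8.95 and 9.18 in osteoblast pools. Those ranges overlapped, and its difference of -0.20 ± 0.29 had an adjusted p of 0.634. Atp6v0a4, best known from kidney, stood at 6.95, 6.94 and 6.96 in osteoclast and at 6.79, 6.73 and 6.90 in osteoblast pools. It differed by 0.14 ± 0.10 (adjusted p = 0.318). It was detected on 6 of the 12 arrays, 3 of them osteoblast arrays. Only in the SCI+FES osteoblast pool was it detected on both arrays, so its levels lie near the detection limit.

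The shift of each osteoclast form relative to its partner was examined as a single value per pool. The d2 over d1 difference was larger in osteoclast than in osteoblast pools by 3.90, and the Tcirg1 over Atp6v0a1 difference by 2.80. For both pairs, all 3 osteoclast pools lay above all 3 osteoblast pools, and an exact two-sided permutation test gave p = 0.1, the smallest that 3 against 3 allows (0.15 adjusted over the 3 pairs tested). For Atp6v0e1 relative to Atp6v0e2, a pair of small membrane subunits, the shift was -0.08 with an exact p of 0.6. Atp6v0e1 stood at 14.71, 14.41 and 14.43 in the sham, SCI and SCI+FES osteoclast pools and at 13.64, 13.83 and 13.80 in the osteoblast pools. It rose by 0.76 ± 0.13, and by 1.01 in the authors' series matrix, which passes 2-fold. The Atp6v0e1 probe reached 73.6% of the brightest signal of its array, so its difference may be compressed. Atp6v0e2 stood at 8.01, 8.03 and 8.14 against 7.22, 7.15 and 7.29. It rose by 0.84 ± 0.10, and by 1.26 both under neqc and under log2(signal + 16), which also passes 2-fold. Atp6v0c, the subunit of the proton-carrying ring, likewise rose by 0.76 ± 0.12 (limma adjusted p = 0.00387), and passed 2-fold in the matrix. Its probe was the brightest on an array, so its difference may be compressed at the top of the scale.

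In the V1 sector, 7 of the 9 tested subunits rose at least 2-fold, with a median of 1.69 over the 9. Atp6v1h, a regulatory subunit, rose most. It stood at 12.07, 11.88 and 11.77 in the sham, SCI and SCI+FES osteoclast pools and at 9.31, 9.39 and 9.50 in the osteoblast pools. This gave a difference of 2.51 ± 0.12 (5.69-fold, limma adjusted p = 4.73e-05). Atp6v1a1, the catalytic subunit, stood at 11.56, 11.74 and 11.73 against 9.80, 9.60 and 9.65. Its difference was 1.99 ± 0.11.

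Atp6v1b2, the other subunit of the ATP-hydrolysing ring, stood at 14.76, 14.64 and 14.63 in osteoclast pools and at 13.01, 12.96 and 12.98 in osteoblast pools. The 3 pools of each culture type lay close together, and the difference was 1.69 ± 0.10. Atp6v1e1, a subunit of the peripheral stalks, stood at 13.62, 13.75 and 13.71 against 11.71, 11.73 and 11.72. It rose by 1.97 ± 0.10, a value near that of Atp6v1a1. Atp6v1d, part of the central rotor, stood at 13.69, 13.81 and 13.61 against 12.65, 12.13 and 12.26, a rise of 1.35 ± 0.16. Atp6v1f, also of the rotor, stood at 13.72, 13.76 and 13.73 against 12.35, 12.54 and 12.38, a rise of 1.32 ± 0.10. Atp6v1g1, another stalk subunit, rose by 0.73 ± 0.12, which did not reach 2-fold. Its probe reached 76.3% of the brightest signal of its array, and that of Atp6v1b2 74.1%, so both differences may be compressed.

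Atp6v1c1, the widely made C subunit, stood at 12.71, 12.46 and 12.26 in osteoclast pools and at 11.01, 10.04 and 10.66 in osteoblast pools. It rose by 1.91 ± 0.26 (limma adjusted p = 0.00236), and its second probe gave 2.02. By the probe used, the osteoblast pools were more scattered for this subunit than for any other of V1, with an SD of 0.49. The second probe moved less between them, with -0.17 for SCI and 0.12 for SCI+FES against sham. Atp6v1c2, a C form of narrower tissue range, stood at 6.99, 6.78 and 6.49 in osteoclast and at 7.06, 6.72 and 6.68 in osteoblast pools. It differed by -0.07 ± 0.17 (adjusted p = 0.789). It was detected on 4 of the 12 arrays, and on both arrays of the sham osteoblast pool alone, so its levels also lie near the detection limit.

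Both accessory subunits rose. Atp6ap2, also known as the prorenin receptor, stood at 14.04, 14.07 and 13.85 in the sham, SCI and SCI+FES osteoclast pools and at 12.15, 12.29 and 12.79 in the osteoblast pools. It rose by 1.58 ± 0.18 (limma adjusted p = 0.00129). Atp6ap1, a glycoprotein of the membrane sector, stood at 11.04, 11.23 and 10.98 against 9.97, 10.01 and 9.95. It rose by 1.11 ± 0.11 (adjusted p = 0.000607).

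**Figure D2:**
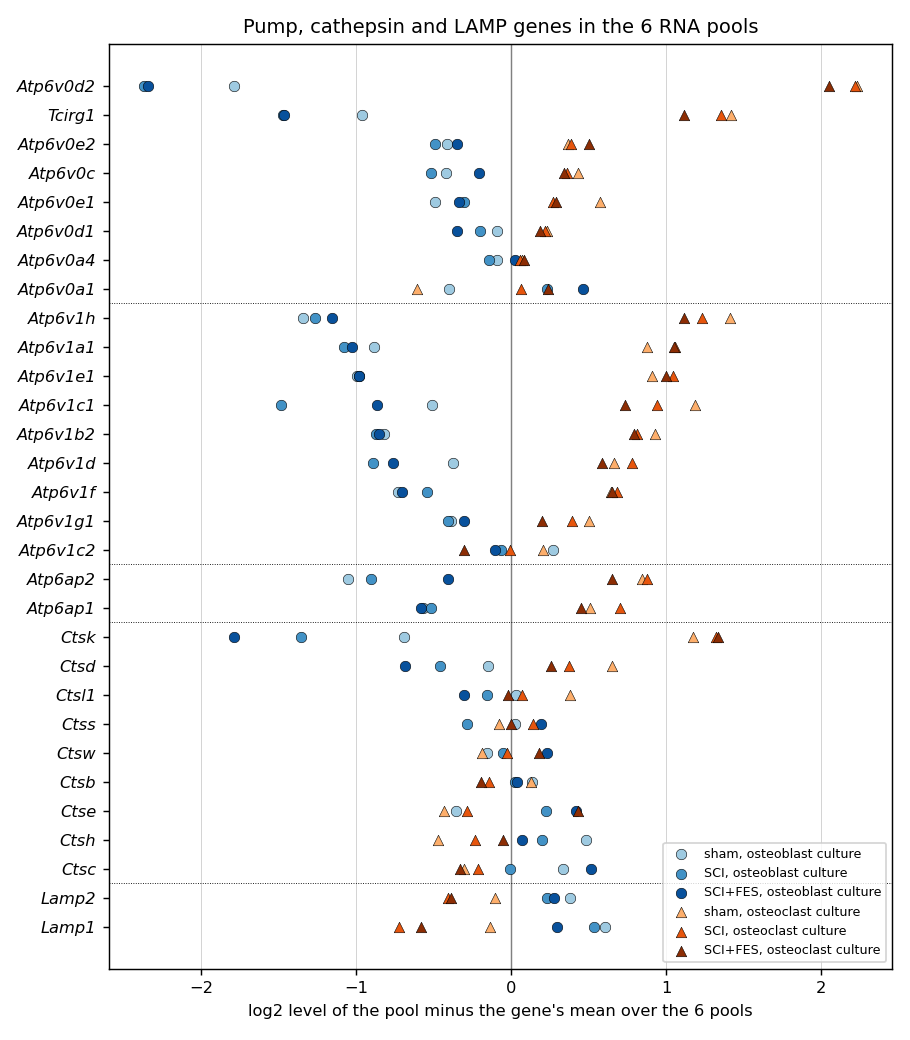
Level of each of the 30 detected genes in the 6 pools, as the log2 pool mean minus that gene's mean over the 6 pools. Circles are osteoblast and triangles osteoclast pools, and dotted lines separate V0, V1, accessory subunits, cathepsins and LAMP genes. The triangles lie to the right of the circles for all but 2 of the pump genes; the exceptions are Atp6v0a1 and Atp6v1c2.

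Among the 9 cathepsins tested, Ctsk was the one that rose at least 2-fold. Cathepsin K stood at 14.95 in the sham, 15.09 in the SCI and 15.11 in the SCI+FES osteoclast pool, and at 13.08, 12.42 and 11.99 in the osteoblast pools. The difference was 2.55 ± 0.26 (5.88-fold, limma adjusted p = 0.000787). The osteoblast pools spread widely (SD 0.55) and the osteoclast pools little (SD 0.09), but the probe reached 92.7% of the brightest signal of its array, so osteoclast levels may be compressed. Within each treatment the difference was 1.86 for sham, 2.68 for SCI and 3.12 for SCI+FES.

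Cathepsin D, the main aspartic protease of lysosomes, rose by 0.86 ± 0.17 (limma adjusted p = 0.0121). It rose by 1.04 in the matrix, past 2-fold, and by 0.84 with an adjusted p of 0.0501 when the SCI osteoblast pool was left out. Cathepsin C, which activates granule serine proteases, fell by 0.56 ± 0.15 on the log2 scale (adjusted p = 0.0306). The adjusted p of cathepsin C rose to 0.163 with arrays scaled to a common median and to 0.136 in the authors' series matrix. It also rose to between 0.0601 and 0.0923 without any 1 pool other than SCI osteoblast. The other 6 cathepsins did not pass. Ctsh had the smallest adjusted p of these at 0.0543, with a difference of -0.50 ± 0.16. Ctsb differed by -0.13 ± 0.12, Ctsl1 by 0.29 ± 0.15, Ctss by 0.04 ± 0.15, Ctse by -0.19 ± 0.29 and Ctsw by -0.02 ± 0.15. The probe of Ctsb reached 84.6% of the brightest signal of its array.

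Ctsk and Ctss are neighbours on chromosome 2 in GRCr8, with 1 annotated protein-coding gene between them. Ctss, a cathepsin of antigen-presenting cells, stood at 12.69, 12.91 and 12.77 in the sham, SCI and SCI+FES osteoclast pools and at 12.80, 12.49 and 12.96 in the osteoblast pools. The ranges overlapped, unlike those of Ctsk.

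The LAMP genes went the other way from the pump. Lamp1 stood at 13.37, 12.78 and 12.92 in the sham, SCI and SCI+FES osteoclast pools and at 14.11, 14.04 and 13.80 in the osteoblast pools. All 3 osteoclast pools lay below, and the gene fell by 0.96 ± 0.18 on the log2 scale (limma adjusted p = 0.00868), just short of 2-fold. It passed 2-fold when the SCI+FES osteoblast pool (-1.05) or the sham osteoclast pool (-1.13) was left out. Lamp2 stood at 12.08, 11.78 and 11.80 against 12.56, 12.41 and 12.46 and fell by 0.59 ± 0.12 (adjusted p = 0.0127). The adjusted p of Lamp2 was 0.113 with arrays scaled to a common median, 0.0502 without the SCI+FES and 0.0603 without the SCI osteoclast pool.

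The promoters of these genes were read from RefSeq (GRCr8), which held 1 for 30 of the 38. They cover 250 bases before to 50 bases after the start, and both strands were searched. The E-box core CACGTG, the core of the site bound by TFEB and its relatives, was present in 4 of the 30, against 6.42% of all promoters. The M-box core TCATGTG, bound by MITF in mouse and human, was also present in 4 of the 30, against 3.56%. The longer CLEAR palindrome, which contains the E-box core, was present in 0 of the 30, against 0.233%. Of the 12 genes that rose at least 2-fold, 8 had a promoter, of which 2 held the M-box core and 0 the E-box core. The 250 bases before the start are shown for those 2, Ctsk and Atp6v1a, and for Lamp1, which fell and held the most E-box cores, 5 of them. They are written on the strand of the gene, and capitals mark the M-box core (CACATGA on the strand shown) or the E-box core. The Ctsk region is chr2:185747298-185747547 on the plus strand, that of Atp6v1a is chr11:70067252-70067501 on the plus strand, and that of Lamp1 is chr16:83075064-83075313 on the minus strand.

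Ctsk: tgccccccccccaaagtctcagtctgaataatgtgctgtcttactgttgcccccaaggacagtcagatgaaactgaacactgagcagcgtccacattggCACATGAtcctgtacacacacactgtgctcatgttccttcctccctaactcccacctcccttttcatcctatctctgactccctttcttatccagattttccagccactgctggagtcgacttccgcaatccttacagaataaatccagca
Atp6v1a: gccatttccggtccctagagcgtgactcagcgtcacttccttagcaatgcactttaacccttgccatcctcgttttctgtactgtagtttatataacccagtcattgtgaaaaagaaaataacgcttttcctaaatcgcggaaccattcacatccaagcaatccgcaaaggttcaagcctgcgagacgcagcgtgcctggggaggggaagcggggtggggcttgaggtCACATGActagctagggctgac
Lamp1: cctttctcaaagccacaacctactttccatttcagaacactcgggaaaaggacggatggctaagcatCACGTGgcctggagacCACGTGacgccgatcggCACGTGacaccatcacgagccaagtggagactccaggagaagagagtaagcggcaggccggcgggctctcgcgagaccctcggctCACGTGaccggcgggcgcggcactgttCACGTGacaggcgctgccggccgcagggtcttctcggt

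The match begins 151 bases before the start in Ctsk and 22 bases before it in Atp6v1a. In Lamp1 the 5 matches begin 183, 167, 150, 65 and 38 bases before the start. The other E-box matches were in Atp6v0d1, Atp6v0e1 and Ctsd, and the other M-box matches in Atp6v0c and Ctss. A match describes the letters and not a bound site.

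The other genes of the pathway, from lists of related genes, were read in the same comparison. Among the partners of acid secretion, 6 of 7 tested rose at least 2-fold, with a median of 1.79 over the list. They were Car2 (3.54), the carbonic anhydrase that supplies protons, Slc4a2 (3.08), the chloride-bicarbonate exchanger, and Snx10 (2.20), a sorting nexin. The others were Plekhm1 (1.79), a regulator of lysosome transport, and Clcn7 (1.52) and Ostm1 (1.06), the chloride-proton exchanger and its partner. Rab7a rose by 0.75. Car2 is also made by erythroid cells, whose markers were detected in the osteoclast pools, and their part in its rise was not tested.

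In the list of soluble hydrolases and their activators, 9 of 29 genes rose at least 2-fold and 1 fell, with a median of 0.35. Those that rose include Gnptab (1.59), which is neither a soluble hydrolase nor an activator. Arsb, an arylsulfatase, rose by 2.82, Gusb, the beta-glucuronidase, by 2.51, and Gla, the alpha-galactosidase, by 2.14. Smpd1, the acid sphingomyelinase, fell by 1.03. Among other lysosomal membrane genes, 3 of 20 rose, namely Clcn7, Ostm1 and Slc11a1 (1.09), a metal transporter of phagosomes, and 0 fell by 2-fold. Of 6 cathepsin inhibitors tested, 2 rose, the stefin Stfa2 by 5.12 and the cystatin Cst7 by 1.90. Stfa2 was detected in no osteoblast pool and stood at 10.16, 11.32 and 13.04 in the sham, SCI and SCI+FES osteoclast pools. Of 7 neutrophil markers detected, 2 were also at least 2-fold higher in osteoclast cultures, S100a8 (3.91) and Lcn2 (3.87). The part of neutrophils in the Stfa2 values was not tested. Among 3 transcription factors tested, Spi1, a regulator of myeloid cells, rose by 1.64. Tfec, of the MITF family, rose by 0.71 (limma adjusted p = 0.0342) and Tfe3, its relative, differed by -0.02.

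The treatments were compared within each culture type to see how SCI and SCI+FES relate to these genes. With 1 pool in each group there is no test. A gene counted as different at 2-fold or more with both arrays of a pool above both of the other, and the SE over duplicate arrays covers array error alone. By this rule 1 gene differed in 1 of the 6 comparisons, Ctsk in osteoblast cultures between SCI+FES and sham. In osteoblast cultures, SCI against sham had 0 of 28 detected genes higher or lower, beside 2.02% and 1.41% of all detected genes, and SCI+FES against SCI had 0 of 29, beside 1.72% and 1.51%. SCI+FES against sham had 0 of 30 higher and 1 lower, beside 4.27% and 3.29%. In osteoclast cultures, 0 of 27 differed in each comparison. The shares of all detected genes were 0.966% higher and 1.87% lower for SCI against sham, 0.309% and 0% for SCI+FES against SCI, and 1.74% and 2.42% for SCI+FES against sham. The 3 comparisons of a culture type share pools and are not independent.

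The median differences of these genes were small, from -0.11 to 0.05 on the log2 scale over the 6 comparisons, and the sign of some of them depended on the scaling. For SCI against sham in osteoblast cultures the median was -0.11, and it was 0.13 in the authors' series matrix. For SCI+FES against sham in osteoclast cultures it was -0.09, and it was 0.26 in the matrix and -0.40 with a common median, where the median of all genes was also -0.40.

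**Figure D3:**
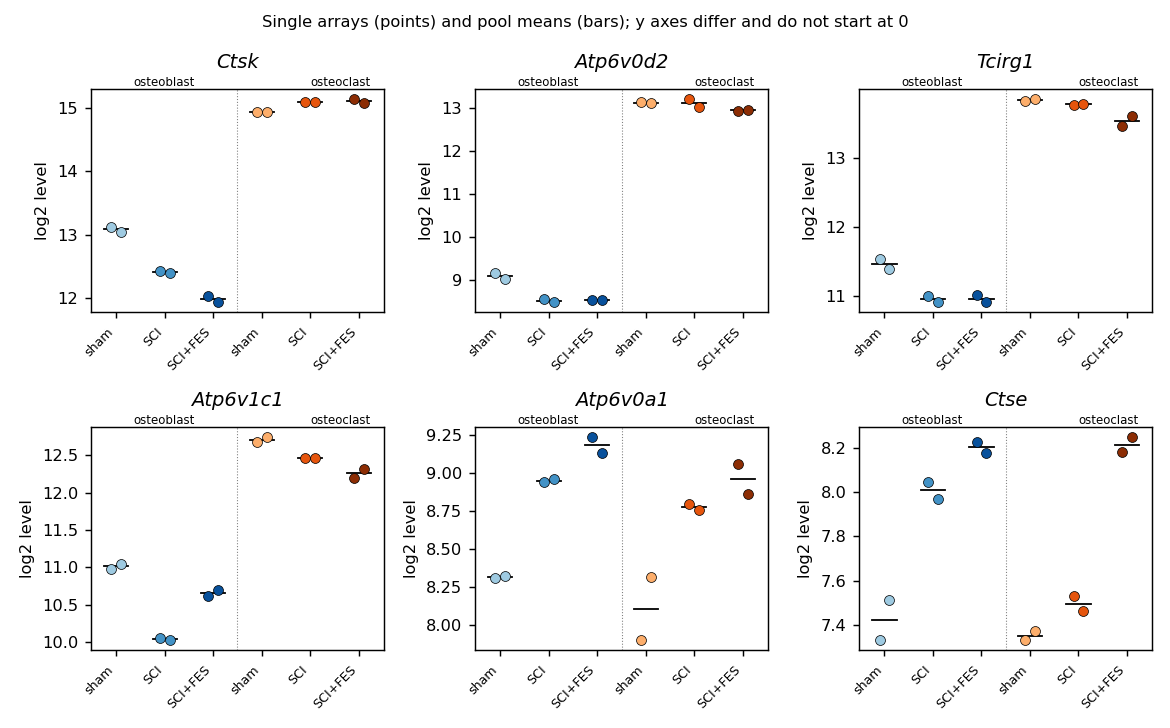
Log2 level of 6 genes on every array (points, 2 per pool) with the pool mean (bar), osteoblast pools on the left of each panel and osteoclast pools on the right. Ctsk runs from 13.08 to 11.99 over the osteoblast pools, while its osteoclast pools lie between 14.95 and 15.11. Axes differ between panels and do not start at 0.

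Ctsk in osteoblast cultures stood at 13.08 in the sham, 12.42 in the SCI and 11.99 in the SCI+FES pool, and no array of one pool overlapped another. It was lower by 1.10 ± 0.06 (SE over arrays) in SCI+FES than in sham, by 0.67 ± 0.04 in SCI than in sham and by 0.43 ± 0.05 in SCI+FES than in SCI. The authors' series matrix gave a smaller difference between SCI+FES and sham, of -0.73, which misses 2-fold. In osteoclast cultures SCI+FES lay above sham by 0.16 ± 0.03, and by 0.84 in the matrix. Cell markers also moved between the osteoblast pools. The summed linear level of the 9 osteoclast markers was 4025 in sham, 4617 in SCI and 5177 in SCI+FES, with 7, 5 and 6 markers detected. Without Ckb and Car2, which were left out after their values were seen, the sum was 1148, 829 and 919, so those 2 genes carried the order of the full sum. For macrophage markers it was 92411, 87143 and 116700, and for osteoblast and stroma markers 122218, 118384 and 86231. T and NK cell markers had sums of 3140, 3439 and 11127, with 5, 9 and 10 of 13 detected. The part of these cells in the Ctsk values was not tested. Mmp9, which is also made by osteoclasts, was lower by 1.02 in SCI than in sham osteoblast cultures, while Ckb was higher by 0.40.

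Of the 11 pump genes that rose in osteoclast cultures, 6 had a lower and 5 a higher mean in the SCI than in the sham osteoblast pool, all by less than 2-fold. Arrays of the pools did not overlap for 5 of those lower and 2 of those higher. Over all 28 detected genes described here, they did not overlap for 16 that were lower and 5 that were higher. The share over all detected genes of the table was not counted, so these numbers set apart neither the pump genes nor the 28 genes as a whole. The higher values were 0.19 for Atp6v1f, 0.15 for Atp6ap2, 0.08 for Atp6v1h, 0.05 for Atp6ap1 and 0.02 for Atp6v1e1. Among those lower, Atp6v0d2 was lower by 0.58 ± 0.08, Tcirg1 by 0.51 ± 0.08 and Atp6v1d by 0.52 ± 0.10, and no array of the 2 pools overlapped for any of the 3. SCI+FES gave nearly the same values for the first 2 of these, with 0.56 ± 0.07 and 0.50 ± 0.08 below sham. Their levels in SCI+FES and SCI differed by 0.02 and 0.01. Of the same 11 in osteoclast cultures, all had a lower mean in SCI+FES than in SCI, 8 without overlap of arrays and 0 by 1.5-fold. Against sham, 5 were lower and 6 higher in SCI, and 8 and 3 in SCI+FES. In osteoblast cultures SCI+FES had 3 lower and 8 higher against SCI, and 7 and 4 against sham. Shares over all genes were again not counted. For SCI+FES against SCI in osteoclast cultures, the median of the 27 detected genes was -0.05, and 0.04 in the matrix.

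Atp6v1c1 stood at 11.01 in the sham, 10.04 in the SCI and 10.66 in the SCI+FES osteoblast pool. It was lower by 0.97 ± 0.04 in SCI than in sham, just short of 2-fold, and higher by 0.62 ± 0.04 in SCI+FES than in SCI. The second probe of the gene, also detected on all 12 arrays, gave -0.17 and 0.29 for the same differences. In other comparisons with sham the probes had opposite signs, with -0.36 and 0.12 for SCI+FES in osteoblast cultures, -0.25 and 0.33 for SCI in osteoclast cultures, and -0.45 and 0.29 for SCI+FES in osteoclast cultures. No treatment difference of this gene is therefore settled.

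At a lower level of 1.5-fold, few of these genes differed in any comparison. In osteoblast cultures, 1 of 28 was higher and 2 lower for SCI against sham, beside 5.77% and 5.1% of all detected genes. For SCI+FES against SCI, 1 of 29 was higher and 0 lower, beside 4.51% and 5.13%. SCI+FES against sham gave 3 of 30 higher and 1 lower, beside 9.88% and 9.53%. In osteoclast cultures, 1 of 27 was higher and 1 lower for SCI against sham, beside 4.25% and 6.25%. For SCI+FES against SCI, 1 was higher and 0 lower, beside 1.05% and 0.0806%, and for SCI+FES against sham, 2 were higher and 0 lower, beside 6.58% and 8.15%.

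Genes that differed the same way by 1.5-fold in both cultures were few. Atp6v0a1 was higher in SCI than in sham by 0.63 ± 0.01 in osteoblast and 0.67 ± 0.21 in osteoclast cultures, and in SCI+FES than in sham by 0.86 ± 0.05 and 0.85 ± 0.23. Its sham osteoclast arrays were 0.41 apart, and with a single array of each pool the last of these values was 1.16 or 0.54. With a common median the SCI difference in osteoblast cultures was 0.31, below 1.5-fold. Ctse, cathepsin E, an aspartic protease of endosomes, was higher in SCI+FES than in sham by 0.78 ± 0.09 in osteoblast and 0.86 ± 0.04 in osteoclast cultures. Its osteoblast pools stood at 7.42, 8.01 and 8.20 and its osteoclast pools at 7.35, 7.50 and 8.21, so that the SCI pool lay near SCI+FES in one culture and near sham in the other. For SCI+FES against sham, 2 genes were thus higher in both cultures and 0 lower, beside 3.23% and 1.57% of all genes detected in both. For SCI against sham, 1 was higher and 0 lower, beside 1.66% and 1.34%, and for SCI+FES against SCI, 0 were higher or lower, beside 0.353% and 0.0282%. These 2 genes were also those farthest toward the upper right in the plot of both cultures.

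**Figure D4:**
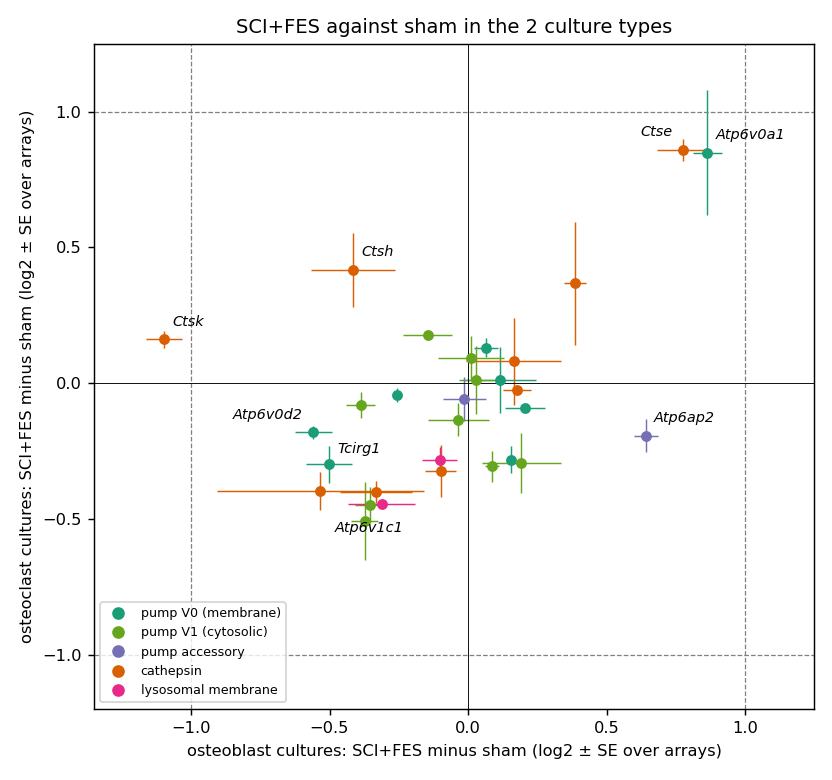
Difference between SCI+FES and sham in osteoblast (horizontal) and osteoclast (vertical) cultures for the 30 detected genes, on the log2 scale. Bars are the SE over duplicate arrays, and dashed lines mark 2-fold. Ctsk lies past the left dashed line at -1.10 and 0.16, while Atp6v0a1 and Ctse lie at the upper right.

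Among the remaining genes, Atp6ap2 was higher in SCI+FES than in sham osteoblast cultures by 0.64 ± 0.04 and lower by 0.19 ± 0.06 in osteoclast cultures. Lamp1 was lower in SCI than in sham osteoclast cultures by 0.59 ± 0.02, and by 0.07 ± 0.05 in osteoblast cultures. In the sham, SCI and SCI+FES osteoclast pools, summed osteoblast and stroma markers were 3943.5, 1437 and 1352, and erythroid markers 4307, 1926 and 1605. Macrophage markers had sums of 69767, 70575 and 73368. The osteoclast pools thus also differed in cell markers. The part of these cells in the Lamp1 and other osteoclast values was not tested. Ctsh was lower in SCI+FES than in sham by 0.41 ± 0.15 in osteoblast cultures and higher by 0.42 ± 0.14 in osteoclast cultures. Ctsc and Ctss were higher in SCI+FES than in SCI osteoblast cultures, by 0.52 ± 0.04 and 0.47 ± 0.10. Summed levels of macrophage and of T and NK cell markers were also higher there, and those of osteoblast and stroma markers lower. The part of these cells in the Ctsc and Ctss values was not tested. Ctsd was lower by 0.53 ± 0.37 in SCI+FES than in sham osteoblast cultures, but its SCI+FES duplicates differed by 0.63. Of the 180 pool values of the 30 genes, 7 had duplicates more than 0.3 apart.

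Outside these families, the listed hydrolase Ppt1, a palmitoyl-protein thioesterase, was lower in SCI+FES than in sham in both cultures, by 1.06 in osteoblast and 1.08 in osteoclast cultures. Car2 was higher by 1.99 in SCI+FES than in SCI osteoblast cultures. Apart from Car2, no gene of the lists of hydrolases, acid secretion partners and other lysosomal membrane genes differed by 2-fold between SCI+FES and SCI. Of all detected genes, 1.72% were higher and 1.51% lower in osteoblast cultures, and 0.309% and 0% in osteoclast cultures. So low a count is therefore not particular to these lists. Cst7, a listed cathepsin inhibitor, was higher in SCI+FES osteoblast cultures by 1.05 than in SCI and by 1.44 than in sham. Stfa2, another inhibitor, was higher in osteoclast cultures by 1.72 in SCI+FES than in SCI. Against sham it was higher by 1.16 in SCI and 2.88 in SCI+FES osteoclast cultures. Summed neutrophil markers stood at 2463, 3003 and 6843 in the sham, SCI and SCI+FES osteoclast pools. Of 7 of them tested for SCI+FES against sham, 2 were 2-fold higher and 1 lower. Summed T and NK cell markers were also highest in the SCI+FES osteoblast pool. The part of these cells in the Stfa2 and Cst7 values was not tested.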

How the data were processed

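RNA was measured on 12 Illumina rat arrays, 2 technical arrays for each of 6 pools. Per the file headers, the deposited table holds, for every array, intensity values and the detection p-value of each probe. Of the deposited intensity values, 26.8% to 30.4% were below 0, so background had been subtracted before deposition by software that the labels do not name. The authors' series matrix holds the same intensity values on a linear scale, rescaled for each array (slope 0.731 to 1.42, column medians 13.8 to 19.1), and the rule that set slope and shift stays unknown. The tables had 0 columns of other series.

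The intensities were corrected with normexp (offset 50), quantile normalized and put on the log2 scale. The offset understates differences of dim genes. Duplicates were averaged, and the culture types were compared by limma over 3 against 3 pools. A gene was called at an adjusted p of at most 0.05 and at least 2-fold. The pools share chip, and p-values measure the spread between these pools, which come from 3 different treatments. Gene roles are background knowledge. The genes, lists and tests were chosen with earlier results of these data known. Values in every pool are given for genes called and their detected partners in the same pump position, and for some others (Ctss, Ctse, Lamp1, Lamp2). Undetected partners are given by range and other genes by difference. Symbols are those of the file, matched to RefSeq. The fit was tested on simulated data. Alternatives covered background, scaling, detection filter, probe choice, blocks and left-out pools or arrays. Array number limits the precision. The software was limma 3.58.1 in R 4.3.3, and pandas 2.3.3, numpy 2.4.6, matplotlib 3.10.9 and scipy 1.17.1 in Python 3.11.15.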

Additional observations from a re-analysis of the deposited data

Results flagged for a closer look

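Ctsk differed in direction between the culture types when SCI+FES was set against sham. Both SCI+FES osteoblast arrays lay below both sham arrays, with a difference of -1.10, while both SCI+FES osteoclast arrays lay above both sham arrays, with a difference of 0.16. The difference between the cultures was not tested, since each group is 1 pool. The Ctsk probe reached 92.7% of the brightest signal of its array, so the osteoclast difference may be compressed. In the authors' series matrix the osteoblast difference was -0.73, which misses 2-fold. Opposite directions without overlap of arrays were seen at any size for 8 of these genes, Ctsk included. Only Ctsk passed 2-fold in a culture, and the share over all genes was not counted.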

How the results depend on the processing

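The count of genes higher in osteoclast cultures was 12, was 18 without the 2-fold requirement, and stayed between 12 and 15 under the other alternatives tried. The count lower was 0, became 3 at any size, and ranged from 0 to 1 when 1 pool was left out, the 1 being Lamp1. With the treatment as a replicate block over the 3 pairs of pools, 12 genes were higher and 0 lower, and no gene changed its call; the labels pair the pools by treatment and not by animal.

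For SCI against sham in osteoblast cultures, 1 gene (Atp6v1c1) was lower under neqc with an offset of 16, under log2(signal + 16) and with a common median, and between 0 and 1 with a single array of each pool. For SCI+FES against sham, neqc and log2(signal + 16) gave 2 genes higher in each culture type (Atp6v0a1 and Ctse), a single array of each pool gave between 0 and 1 higher in osteoclast cultures, and the authors' matrix gave 0 lower in osteoblast cultures. At 1.5-fold, osteoblast cultures had 1 gene higher and 2 lower for SCI against sham, 1 higher for SCI+FES against SCI and 3 higher for SCI+FES against sham. Osteoclast cultures had 1 higher and 1 lower, 1 higher and 2 higher for the same 3 comparisons. The cause of these changes was not tested, apart from the lower threshold.

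Over all genes, 438 were higher and 597 lower in osteoclast cultures, 675 and 801 under neqc, 701 and 884 under log2(signal + 16), and 319 and 703 with a common median, which moved the share of higher calls from 42.3% to 31.2%. With a common median, the median of all genes for SCI+FES against sham in osteoclast cultures was -0.40. No gene with a call changed direction under any alternative. With 1 pool in each group, differences between animals could not be measured.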
